A study of Drosophila melanogaster with 8 samples.

Results

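The genes described here make the building blocks of DNA and RNA, or break DNA down. They were listed by name and found by symbol in the platform annotation: Gart, RnrL, RnrS, dnk, Ts, r, awd and DNaseII. Of these 8 genes, 5 had a probe set that carries their name, 1 each, among 18769 probe sets tested and 11982 named genes. The other 3, RnrS (small subunit of ribonucleotide reductase), awd (a nucleoside diphosphate kinase) and DNaseII (an acid DNase of the lysosome), had none in the annotation used here and were not analysed here, so the results below hold no value for a DNase that acts on engulfed DNA.

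The arrays measured S2 cells, an embryonic Drosophila melanogaster cell line that resembles hemocytes (fly blood cells), grown with serum. All cells first received double-stranded RNA (dsRNA) and, 3 days later, a transfection, and were lysed 24 hours after it. In the dSTING RNAi dsDNA group the dsRNA targeted dSTING, the fly STING gene, and the transfection carried a double-stranded DNA (dsDNA) of 90 nucleotides. The dSTING RNAi mock group had the same dsRNA with the transfection reagent alone. The control dsDNA and control mock groups had a non-specific dsRNA and the matching transfections, so no group is free of dsRNA or of transfection reagent. Each of the 4 groups has 2 arrays. Whether the arrays of a group are separate cultures is not in the labels. The p-values and intervals cover only the spread between those arrays, which may be technical. In 4 samples the genotype tag follows the DNA treatment, and groups were taken from the titles.

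Cells obtain nucleotides by building the purine and pyrimidine rings anew or by salvaging nucleosides. Ribonucleotide reductase turns ribonucleotides into deoxynucleotides, and thymidylate synthase supplies the thymidine nucleotide used to build DNA. In dividing cells many genes of deoxynucleotide supply are transcribed around S phase. DNA that reaches the wrong compartment is degraded by DNases, and in animals STING is the receptor for cyclic dinucleotides, which cGAS-like receptors make after sensing nucleic acids.

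Sting, the target of the RNAi, had intensities of 5.33 and 8.05 in dSTING RNAi dsDNA cells and 3.45 and 6.33 in dSTING RNAi mock cells, against 51.6 and 53.1 in control dsDNA cells and 48.7 and 50.9 in control mock cells. The titles thus matched the knockdown on all 8 arrays. Of 12 hemocyte markers 6 lay above a mean log2(intensity + 1) of 3, a level used here to separate brighter probe sets: srp, ush, crq, NimC1, vkg and Col4a1. The markers Hml, eater, Pxn, He, Sr-CI and PPO2 lay below it, all with a mean intensity of at most 2.38. No measured fat body, muscle, neuronal, glial or gut marker lay above that level, and of 4 germline and follicle markers only tud did. One array of the dSTING RNAi dsDNA group (number 2, at 12.5) and one of the control mock group (number 2, at -12.2) stood apart on principal component 1 of the 4189 brighter probe sets, which took 52.1% of their variance, while the other 6 lay between -5.6 and 3.1.

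All 5 measured genes were well above the floor of 1 on every array, and none passed the limma test in any comparison. Sting missed the same threshold: its mean knockdown difference was -2.99 (SE 0.19, 95% interval -3.47 to -2.50; limma adjusted p = 0.121), with limma adjusted p-values of 0.901 with dsDNA and 0.367 without, although its RNAi and control arrays did not overlap. A missed call in this fit therefore says little about the 5 genes, and their intervals are given below. In cell extracts of this kind, fewer cells of a type and less RNA per cell cannot be told apart. limma called 0 of the 5 and 0 of 18769 probe sets (0%) in each of 7 comparisons: the knockdown with dsDNA and with mock transfection, dsDNA in RNAi and in control cells, and the difference between those dsDNA responses (the interaction). The other 2 were the knockdown averaged over transfections and dsDNA averaged over the RNAi and control cells, called the mean knockdown and the mean dsDNA effect, each with 4 arrays a side. No test of the 5 genes had an unadjusted limma p under 0.05 either. Over all 18769 probe sets 786 to 1009 did in each comparison, which is near the share a threshold of 0.05 passes with no effect at all. In the same fit, 95 (interaction) to 286 (mean dsDNA effect) of the 4189 brighter probe sets did, a set that includes the 5 genes. At such shares 0 of 5 says little. Tested among brighter probe sets alone, an alternative chosen after seeing the data, limma called 3 probe sets (0.0716%) in each single knockdown comparison, 4 (0.0955%) in the mean knockdown and 0 in the other 4 comparisons, and again 0 of the 5 genes. The mean log2 levels were 4.66 for Gart, 3.61 for r, 6.24 for RnrL, 4.06 for Ts and 5.68 for dnk, all above 3. Levels of different probe sets are not comparable, so only values of the same gene are set against each other below.

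**Figure D1:**
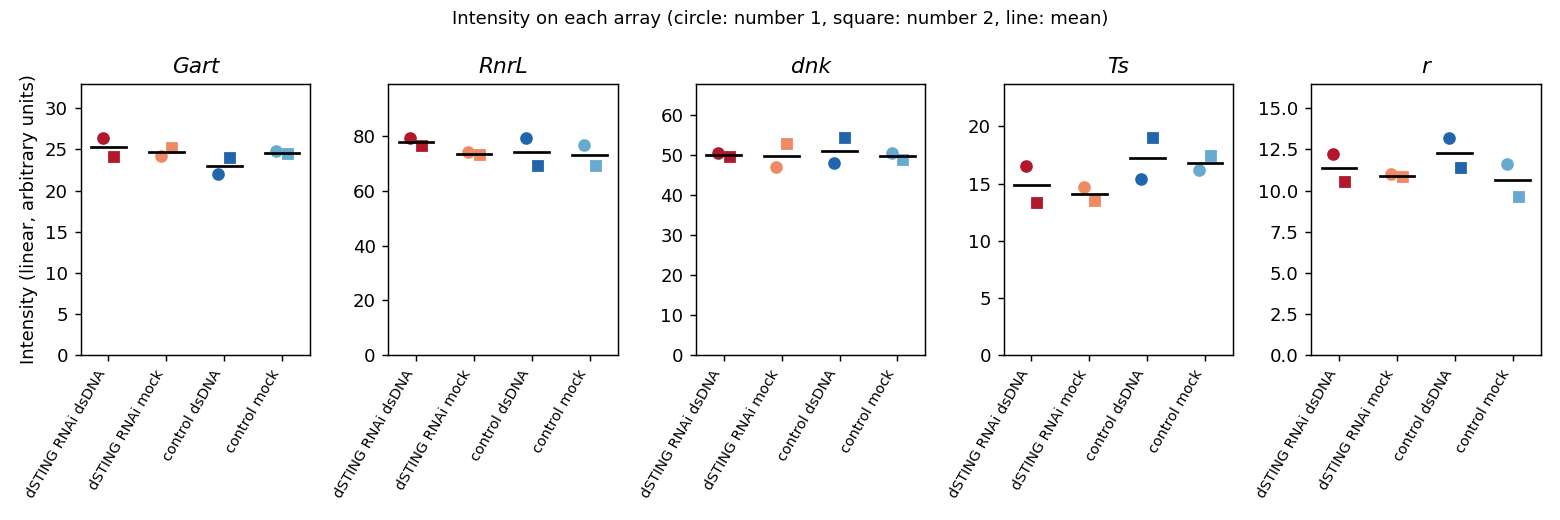
Intensity (linear, arbitrary units, axis from 0) of Gart, RnrL, dnk, Ts and r on each of the 8 arrays, by group, with circles for array number 1, squares for number 2 and a line for the mean of the 2. Gart, RnrL and dnk lie in narrow bands (highest over lowest array 1.20, 1.15 and 1.16), and Ts has its lowest values, 13.3 and 13.5, in dSTING RNAi cells.

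Gart encodes an enzyme with several activities in the synthesis of the purine ring. Its intensity was 24.1 and 26.4 in dSTING RNAi dsDNA cells and 24.2 and 25.2 in dSTING RNAi mock cells, against 22.0 and 23.9 in control dsDNA cells and 24.4 and 24.8 in control mock cells. With dsDNA both RNAi arrays lay above both control arrays, by only 0.2 between the nearest values as rounded here, and without dsDNA the groups overlapped. The arrays of these groups separated, in either direction, for 16.2% of brighter probe sets. The log2 difference of the knockdown was 0.13 (SE 0.061, 95% interval -0.02 to 0.29) with dsDNA and 0.00 (SE 0.061, -0.15 to 0.16) without.

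In the dsDNA comparisons of Gart, the control dsDNA arrays lay below both control mock arrays, as the arrays of those groups did for 33.5% of brighter probe sets in either direction. The log2 difference was -0.10 (SE 0.061, 95% interval -0.25 to 0.05) in control cells and 0.03 (SE 0.061, -0.12 to 0.19) in RNAi cells. The test of the difference between these dsDNA responses gave 0.13 (SE 0.086, -0.09 to 0.35; limma adjusted p = 1). Ordered by mean intensity, dSTING RNAi dsDNA came highest at 25.3 ± 1.66, followed by dSTING RNAi mock at 24.7 ± 0.72, control mock at 24.6 ± 0.248 and control dsDNA at 22.9 ± 1.31 (SD, n = 2 each). The first 3 overlapped one another. Averaged over treatments the knockdown gave 0.07 (SE 0.043, -0.04 to 0.18) and dsDNA -0.03 (SE 0.043, -0.14 to 0.08).

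The gene r (rudimentary) encodes the CAD protein, which carries out the opening steps of pyrimidine synthesis. It had 10.5 and 12.2 in dSTING RNAi dsDNA cells and 10.8 and 11.0 in dSTING RNAi mock cells, against 11.4 and 13.2 in control dsDNA cells and 9.62 and 11.6 in control mock cells. The lowest value was in control mock cells and the highest in control dsDNA cells, and every pair of groups compared overlapped. The log2 difference with dsDNA was 0.05 (SE 0.12, 95% interval -0.25 to 0.35) in RNAi cells and 0.20 (SE 0.12, -0.10 to 0.49) in control cells. The difference between these responses was -0.15 (SE 0.17, -0.57 to 0.27). It turned sign, to 0.07, without the 2 arrays that stood apart, where the dsDNA differences were 0.15 in RNAi cells and 0.08 in control cells.

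The knockdown difference of r was -0.10 (SE 0.12, 95% interval -0.40 to 0.19) with dsDNA and 0.04 (SE 0.12, -0.25 to 0.34) without. Group means were 11.4 ± 1.21 in dSTING RNAi dsDNA cells, 10.9 ± 0.094 in dSTING RNAi mock cells, 12.3 ± 1.31 in control dsDNA cells and 10.6 ± 1.38 in control mock cells (SD, n = 2 each). No neighbours in the order of these means were further apart than the larger of their SDs. The mean knockdown difference was -0.03 (SE 0.083, -0.24 to 0.18), and the mean dsDNA difference was 0.12 (SE 0.083, -0.09 to 0.33; limma adjusted p = 0.894).

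RnrL encodes the large subunit of ribonucleotide reductase, which holds the catalytic site. It had 76.4 and 79.4 in dSTING RNAi dsDNA cells and 73.1 and 74.2 in dSTING RNAi mock cells, against 69.0 and 79.2 in control dsDNA cells and 69.2 and 76.8 in control mock cells. The control arrays lay between 69.0 and 79.2, and 2 of them were below every RNAi array. In RNAi cells both dsDNA arrays lay above both mock arrays, as the arrays of these groups separated for 22.8% of brighter probe sets. That difference was 0.08 (SE 0.081, 95% interval -0.13 to 0.28), and in control cells it was 0.02 (SE 0.081, -0.19 to 0.22). The interaction was 0.06 (SE 0.12, -0.23 to 0.35). With the knockdown, RnrL had a difference of 0.07 (SE 0.081, -0.13 to 0.28) in dsDNA-treated cells and 0.01 (SE 0.081, -0.19 to 0.22) in mock-treated cells. By mean, dSTING RNAi dsDNA cells had 77.9 ± 2.12, control dsDNA cells 74.1 ± 7.22, dSTING RNAi mock cells 73.6 ± 0.786 and control mock cells 73.0 ± 5.37 (SD, n = 2 each). The last 3 overlapped one another, and dSTING RNAi dsDNA cells overlapped both control groups. The mean knockdown difference was 0.04 (SE 0.058, -0.10 to 0.19) and the mean dsDNA difference 0.05 (SE 0.058, -0.10 to 0.19).

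Ts encodes thymidylate synthase, which makes dTMP from dUMP. It had 13.3 and 16.5 in dSTING RNAi dsDNA cells and 13.5 and 14.7 in dSTING RNAi mock cells, against 15.4 and 19.0 in control dsDNA cells and 16.2 and 17.4 in control mock cells. In mock-treated cells both RNAi arrays lay below both control arrays, and the arrays of those groups separated for 30.6% of brighter probe sets. In dsDNA-treated cells the groups overlapped through one RNAi array, at 16.5. The log2 difference of the knockdown was -0.20 (SE 0.14, 95% interval -0.54 to 0.15) with dsDNA and -0.24 (SE 0.14, -0.58 to 0.10) without.

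Averaged over treatments, Ts had 14.5 ± 1.47 in dSTING RNAi arrays and 17.0 ± 1.58 in control arrays (SD, n = 4 each), a ratio of 0.85. The mean knockdown difference was -0.22 (SE 0.10, 95% interval -0.46 to 0.03), with an unadjusted limma p of 0.0707 and an adjusted p of 0.993. This was the largest of the mean knockdown and mean dsDNA differences of the 5 genes. Among brighter probe sets 90% had a mean knockdown difference between -0.13 and 0.14, so Ts lay outside that band. Yet the 4 RNAi arrays overlapped the 4 control arrays, which for 2.05% of brighter probe sets they did not. Without the 2 arrays that stood apart the difference was -0.12 (SE 0.11) on average, -0.05 with dsDNA and -0.19 without, and with 1 array left out it was nearest to 0, at -0.14 on average, without control dsDNA number 2 or without dSTING RNAi dsDNA number 2. With dsDNA, Ts had a difference of 0.07 (SE 0.14, -0.28 to 0.41) in RNAi cells and 0.02 (SE 0.14, -0.32 to 0.37) in control cells, and the interaction was 0.04 (SE 0.19, -0.44 to 0.53).

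The gene dnk encodes the fly deoxynucleoside kinase, a salvage enzyme known for accepting all the natural deoxynucleosides. It had 49.5 and 50.5 in dSTING RNAi dsDNA cells and 46.9 and 52.8 in dSTING RNAi mock cells, against 47.9 and 54.3 in control dsDNA cells and 48.8 and 50.6 in control mock cells. Every pair of groups overlapped, and group means lay between 49.7 and 51.1. The knockdown difference was -0.03 (SE 0.081, 95% interval -0.23 to 0.18) with dsDNA and 0.00 (SE 0.081, -0.20 to 0.21) without. With dsDNA the difference was 0.01 (SE 0.081, -0.20 to 0.21) in RNAi cells and 0.04 (SE 0.081, -0.17 to 0.24) in control cells, with an interaction of -0.03 (SE 0.11, -0.32 to 0.26).

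**Figure D2:**
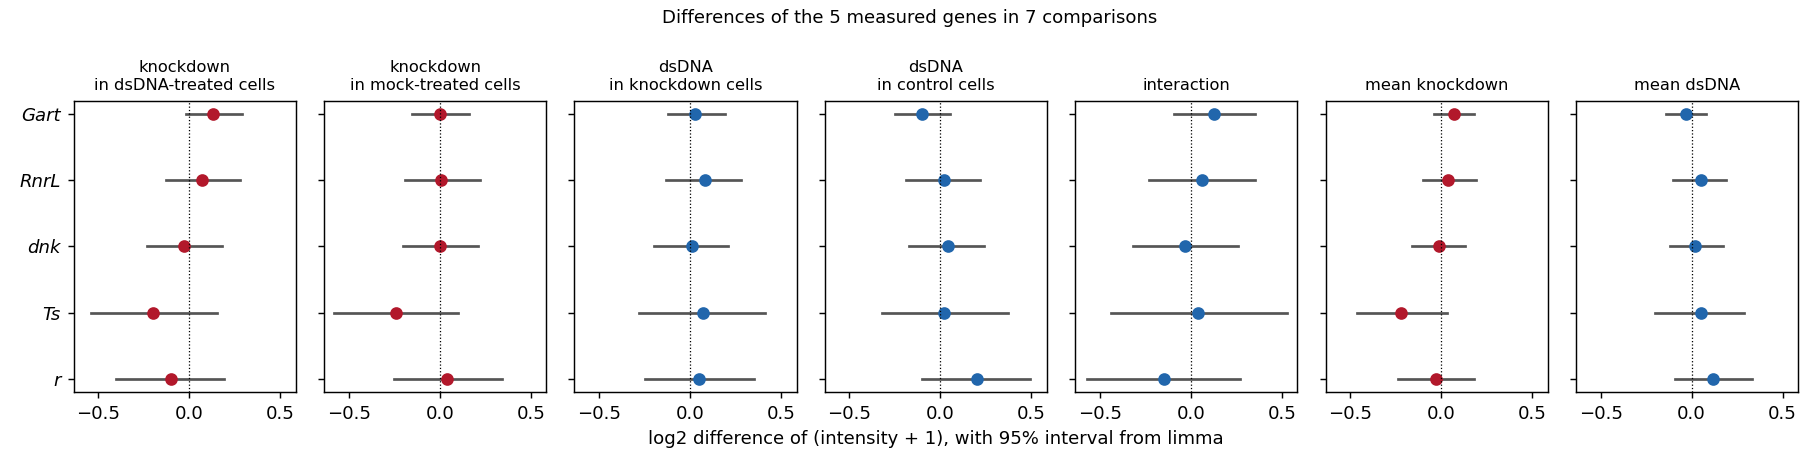
Differences on the log2(intensity + 1) scale with their 95% intervals from limma for the 5 genes (down the page) in 7 comparisons (left to right, with the mean effects last). Points are estimates (red for the knockdown, blue for dsDNA and the interaction) and lines intervals, and each interval includes 0. The widest belong to Ts and r, with Ts at -0.22 in the mean knockdown.

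The intervals state what size of change these arrays leave possible, given only the spread between arrays of a group, which may be technical. If it is, they leave out the variation between cultures. Those of Gart, RnrL and dnk also came out wider in some alternative fits, described in the closing section. For the mean knockdown the bounds over the 5 genes were -0.46 and 0.19, and for the mean dsDNA effect -0.20 and 0.33, so a doubling or halving (1 on the log2 scale, before the added 1 compresses it) lies outside all of them. The median difference of the 5 genes was -0.01 in the mean knockdown, with 2 above 0 and 3 below, beside -0.00 over all probe sets and over brighter ones. In the mean dsDNA effect the median was 0.05, with 4 above 0 and 1 below, beside 0.00 over all probe sets and -0.01 over brighter ones. For the interaction it was 0.04, with 3 above 0 and 2 below, beside 0.00 over all probe sets and 0.04 over brighter ones.

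The spread between arrays differed among the 5 genes. Over all 8 arrays the SD on the log2 scale was 0.07 for Gart, 0.08 for RnrL and 0.07 for dnk, and 0.17 for Ts and 0.13 for r, beside a median of 0.13 for brighter probe sets. Of brighter probe sets 12.5% had a smaller SD than Gart, 16.2% than RnrL, 11.5% than dnk, 50.4% than r and 73.5% than Ts. Within groups the SDs were 0.06 for Gart, 0.09 for RnrL, 0.09 for dnk, 0.15 for Ts and 0.13 for r. In no gene but Gart and Ts did the SD over all arrays exceed that within groups at this rounding.

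RnrL and r followed the array number in every group. RnrL was higher on number 1 than on number 2 by 0.05 in dSTING RNAi dsDNA cells, 0.02 in dSTING RNAi mock cells, 0.20 in control dsDNA cells and 0.15 in control mock cells. For r these differences were 0.20, 0.02, 0.20 and 0.24 in the same groups. Among brighter probe sets 4.8% had number 1 on one side of number 2 in all 4 groups. The labels do not say what a number stands for, and over brighter probe sets the number 1 minus number 2 differences of different groups correlated at -0.74 to 0.38. Gart, Ts and dnk had both signs. For Ts, number 1 was higher in both RNAi groups, by 0.29 with dsDNA and 0.12 in mock, and lower in both control groups, by 0.29 and 0.10.

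**Figure D3:**
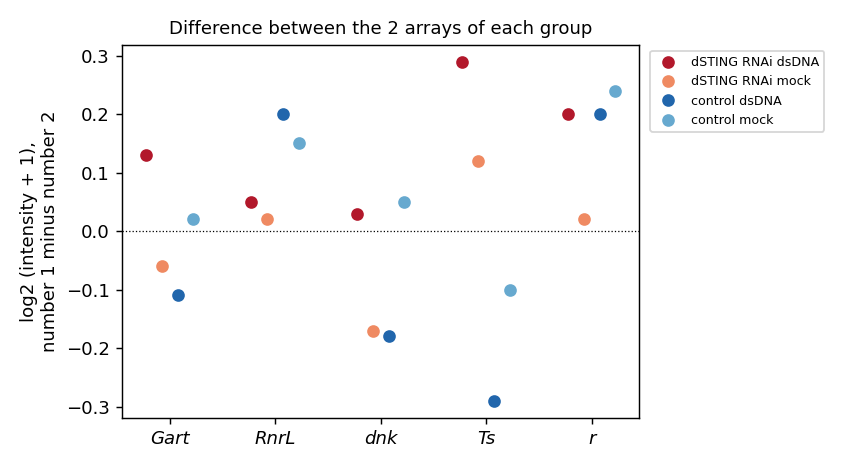
Array number 1 minus number 2 within each group, as a difference of log2(intensity + 1), for the 5 genes, with 1 point per group. All 4 points of RnrL (0.02 to 0.20) and of r (0.02 to 0.24) lie above 0, while Gart, dnk and Ts have points on both sides.

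The genes with the most similar pattern over the 8 arrays were found among 3625 brighter probe sets of other named genes. These were Rrp47 for Gart (Pearson r 0.97), Nle for r (0.88), Ref1 for RnrL (0.97), Gnf1 for Ts (0.94) and CG1236 for dnk (0.92). The points share arrays and normalization, and the best of so many candidates is high by selection, so these values are descriptions.

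Around these genes, 81 pathway genes were listed, of which 67 were measured and 35 lay above the level of 3. limma called 0 of the 67 in every comparison, higher or lower. Signs are counted by list below. Over all probe sets 9341 lay above 0 and 9428 below in the mean knockdown, and 9405 above and 9364 below in the mean dsDNA effect. Of the 35, none had RNAi and control arrays that did not overlap, beside 2.05% of brighter probe sets, and none had dsDNA and mock arrays that did not, beside 3.06%. The genes named below are those with the largest differences among the brighter genes of each list in the mean knockdown or mean dsDNA effect, other than the 5 genes, so their size comes from that choice. Sid, PCNA, E2f2 and Mcm3 were named after their values were seen.

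In purine synthesis 10 of 11 listed genes were measured, with Gart among them. Their median difference was 0.00 in the mean knockdown (5 above 0, 5 below) and 0.07 in the mean dsDNA effect (9 above 0, 1 below), and the 1 below was Gart. Prps, which makes the phosphoribosyl donor, had 0.23 (SE 0.16) with dsDNA. Prat, which catalyses the committed step, had 0.17 (SE 0.11), at 23.7 ± 2.23 and 22.9 ± 2.65 in the RNAi and control dsDNA groups and 20.4 ± 1.35 and 20.8 ± 3.85 in the RNAi and control mock groups (SD, n = 2 each). The GMP synthetase gene bur had 0.10 (SE 0.05) with the knockdown. None passed the test (limma adjusted p 0.894 to 1).

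All 4 pyrimidine synthesis genes were measured and bright. Their median was -0.02 in the mean knockdown (0 above 0, 4 below) and 0.00 in the mean dsDNA effect (2 above 0, 2 below). Dhod, the dihydroorotate dehydrogenase, had -0.14 (SE 0.14) with dsDNA, in the direction opposite to r at 0.12. The UMP synthase gene r-l and the CTP synthase gene Ctps lay within 0.02 of 0 in both mean effects. Among 3 pyrimidine breakdown genes, su(r), dihydropyrimidine dehydrogenase, had the largest dsDNA difference at -0.19 (SE 0.07), with 66.0 ± 8.15 and 66.7 ± 0.782 in the RNAi and control dsDNA groups against 71.7 ± 1.73 and 79.7 ± 5.88 in the RNAi and control mock groups (SD, n = 2 each). The beta-ureidopropionase gene pyd3 had -0.04 (SE 0.05) in the mean knockdown and -0.06 (SE 0.05) in the mean dsDNA effect.

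Of 8 deoxynucleotide supply genes 4 were measured, and 3 of these are RnrL, Ts and dnk. The other, dUTPase, which removes dUTP and yields the substrate of thymidylate synthase, had -0.04 (SE 0.07) with the knockdown and -0.02 (SE 0.07) with dsDNA. Of the one-carbon genes that feed thymidylate and purine synthesis, Shmt (serine hydroxymethyltransferase) had -0.15 (SE 0.05) in the mean knockdown. Its group means were 121 ± 10.2 and 120 ± 4.74 in RNAi cells with and without dsDNA, against 130 ± 7.84 and 136 ± 0.601 in control cells (SD, n = 2 each; limma adjusted p = 0.993). Nmdmc, a methylenetetrahydrofolate dehydrogenase, had 0.08 (SE 0.03), at 43.8 ± 1.54 and 45.1 ± 0.483 against 41.3 ± 0.287 and 42.5 ± 1.54 in the same order of groups.

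Of 13 measured salvage and breakdown genes, 5 were bright, and one of them had the largest mean dsDNA difference of the 35 genes. cN-IIIB, a cytosolic 5'-nucleotidase, had -0.42 (SE 0.27) in the mean dsDNA effect and -0.22 (SE 0.27) in the mean knockdown, with 7.02 ± 3.97 in dSTING RNAi dsDNA cells, 7.31 ± 0.936 in dSTING RNAi mock cells, 6.26 ± 1.47 in control dsDNA cells and 10.8 ± 2.38 in control mock cells (SD, n = 2 each). Adgf-A, a secreted adenosine deaminase, had 0.24 (SE 0.11) with dsDNA and 0.15 (SE 0.11) with the knockdown. The 4 measured nucleotide kinase genes, none of them bright, had medians of 0.00 in the mean knockdown and -0.05 in the mean dsDNA effect.

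Genes tied to DNA degradation and repair were listed beside DNaseII. Of 12 listed 10 were measured, with a median of 0.04 in the mean knockdown and -0.02 in the mean dsDNA effect, and 3 were bright. Rrp1, a nuclease of base excision repair, had -0.20 (SE 0.06) in the mean knockdown, with 27.3 ± 1.78 and 28.1 ± 0.386 in RNAi cells with and without dsDNA, against 29.1 ± 3.45 and 35.1 ± 0.589 in control cells (SD, n = 2 each). Its limma adjusted p was 0.993. The mitochondrial nuclease EndoG had -0.27 (SE 0.19) with dsDNA, and mre11, a double-strand break nuclease, 0.06 (SE 0.05) with the knockdown. The stress-induced DNase Sid was at most 1.28 on any array, near the floor of 1.

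The 15 measured replication genes had a median of -0.08 in the mean knockdown, with 3 above 0 and 12 below. In the mean dsDNA effect it was -0.01, with 6 above 0 and 9 below. Of the 7 bright ones, 2 lay above 0 and 5 below in the mean knockdown, and 4 above and 3 below in the mean dsDNA effect. A shared direction was not tested. By the rule of size dpa, an MCM helicase subunit, had -0.20 (SE 0.14) in the mean knockdown, made up of 0.01 (SE 0.19) with dsDNA and -0.40 (SE 0.19) without, and 0.20 (SE 0.14) in the mean dsDNA effect. Mcm2, of the same complex, had -0.10 (SE 0.07) in the mean knockdown, and Mcm6 had 0.09 (SE 0.05) in the mean dsDNA effect. In the mean knockdown PCNA, the sliding clamp, had -0.08 (SE 0.07), the cell cycle transcription factor gene E2f2 0.05 (SE 0.05) and Mcm3 0.00 (SE 0.10). In the same comparison Ts had -0.22 and RnrL 0.04, and none of these passed the test.

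**Figure D4:**
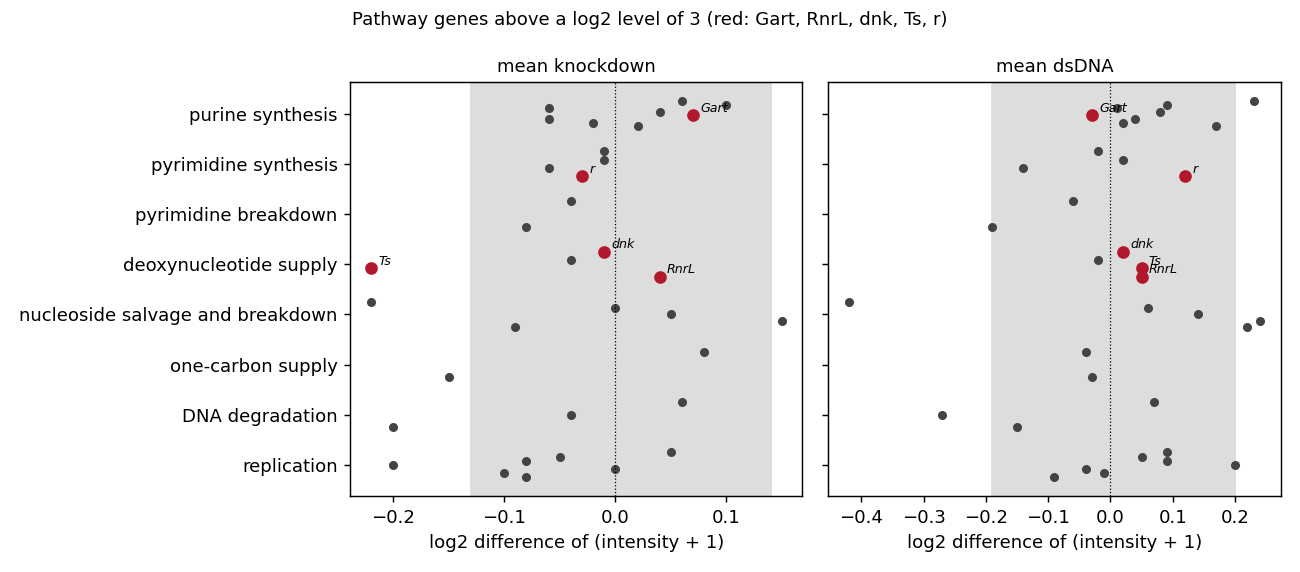
Mean knockdown (left) and mean dsDNA (right) differences of log2(intensity + 1) for the 35 pathway genes above a log2 level of 3, by list, with Gart, RnrL, dnk, Ts and r in red and the middle 90% of brighter probe sets shaded. Of the red genes only Ts in the mean knockdown, at -0.22, lies outside the shading.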

How the data were processed

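RNA of 8 S2 samples was labelled by a 3' in vitro transcription kit for Affymetrix arrays, per the labels' protocols. The deposited table holds 1 linear intensity per probe set and array. For the software, background correction and normalization, the method is not stated in the labels. Values never lie under 1, 19.6% to 24.1% of an array's values lie at that floor, and array medians were 1.18 to 1.22. The number of arrays limits the precision.

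Of 18952 probe sets, 183 AFFX controls were left out. Annotation gave 13647 probe sets 1 gene, 402 several and 4720 none, with symbols updated through gene identifiers of the Release 6 plus ISO1 MT assembly. One limma fit (3.58.1, R 4.3.3) of log2(intensity + 1), with a mean per group, gave 7 contrasts with 4 residual degrees of freedom, Benjamini-Hochberg adjusted over all 18769 probe sets, two-sided, at a threshold of 0.05. The fit was also run on simulated data, only to check the size of changes planted in the mean knockdown. Noise there was independent between probe sets and arrays, so no rate of calls is taken from it. Adding 1 understates the changes of dim probe sets.

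The members and lists were chosen with earlier results of these data known. Named were all members with a probe set, Sting, per list the 2 brighter genes with the largest absolute difference in each mean contrast, and per member the gene with the highest correlation. PCNA, E2f2, Mcm3 and Sid fall outside this rule and were named after their values were seen. A gene with several probe sets took its brightest. Alternatives were a replicate block, quantile normalization, median centring, a filter at the median level, eBayes in its trended, robust form, log2(intensity + 16), leaving out each array and, chosen after seeing the data, leaving out 2 arrays and a filter at a level of 3.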

Additional observations from a re-analysis of the deposited data

How the results depend on the processing

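Of the 5 measured genes limma called 0 in each of 7 comparisons under all 16 alternatives, and the lowest adjusted p of any of them was 0.566 (Gart, knockdown in dsDNA-treated cells, without the 2 arrays that stood apart). That setting leaves dSTING RNAi dsDNA and control mock with 1 array each, as leaving out 1 array does for its group, so the lone array is assumed to vary like the other groups and such a p is weak. A missed threshold does not show equal levels. The SEs depended on the setting, shown here for the knockdown in dsDNA-treated cells. For Gart the SE was 0.061 in the main fit, 0.10 with either filter and 0.12 with the trended, robust eBayes. RnrL and dnk had 0.081, then 0.11 and 0.12 in the same settings. With the filter at a level of 3, Ts stayed at 0.14 and r went from 0.12 to 0.13. With the replicate block the SE was 0.07 for Gart and r, 0.06 for RnrL, 0.08 for dnk and 0.15 for Ts. Of the 35 differences, 13 kept their sign whichever array was left out, though most moved by over 1.5 times. Of these, Gart had 0.07 (without dSTING RNAi dsDNA 1) to 0.20 (without dSTING RNAi dsDNA 2) for knockdown in dsDNA-treated cells, -0.15 (without control dsDNA 2) to -0.04 (without control dsDNA 1) for dsDNA in control cells, 0.07 (without dSTING RNAi dsDNA 1) to 0.20 (without dSTING RNAi dsDNA 2) for interaction, 0.04 (without control dsDNA 1) to 0.10 (without control dsDNA 2) for mean knockdown, -0.07 (without dSTING RNAi dsDNA 1) to -0.0008 (without dSTING RNAi dsDNA 2) for mean dsDNA. RnrL had 0.05 (without dSTING RNAi dsDNA 1) to 0.11 (without dSTING RNAi dsDNA 2) for dsDNA in knockdown cells. Ts had -0.34 (without control dsDNA 1) to -0.05 (without control dsDNA 2) for knockdown in dsDNA-treated cells, -0.30 (without dSTING RNAi mock 1) to -0.18 (without dSTING RNAi mock 2) for knockdown in mock-treated cells, -0.29 (without control dsDNA 1) to -0.14 (without control dsDNA 2) for mean knockdown. r had -0.20 (without control dsDNA 2) to -0.003 (without control dsDNA 1) for knockdown in dsDNA-treated cells, 0.08 (without control mock 2) to 0.32 (without control mock 1) for dsDNA in control cells, -0.27 (without control mock 1) to -0.03 (without control mock 2) for interaction, 0.06 (without control mock 2) to 0.18 (without control mock 1) for mean dsDNA. The other 22 ranged through 0 with 1 array left out, all of them uncalled. For the knockdown in dsDNA-treated cells these ranges were RnrL -0.02 to 0.17, dnk -0.12 to 0.06. For the knockdown in mock-treated cells these ranges were Gart -0.03 to 0.03, RnrL -0.06 to 0.09, dnk -0.08 to 0.09, r -0.08 to 0.16. For dsDNA in control cells these ranges were RnrL -0.08 to 0.12, dnk -0.05 to 0.13, Ts -0.12 to 0.17. For dsDNA in knockdown cells these ranges were Gart -0.03 to 0.10, dnk -0.08 to 0.09, Ts -0.08 to 0.21, r -0.05 to 0.15. For the interaction these ranges were RnrL -0.04 to 0.16, dnk -0.12 to 0.06, Ts -0.10 to 0.19. For the mean knockdown these ranges were RnrL -0.005 to 0.09, dnk -0.06 to 0.03, r -0.09 to 0.03. For the mean dsDNA effect these ranges were RnrL -3e-05 to 0.10, dnk -0.02 to 0.07, Ts -0.03 to 0.12. Median centring turned the sign of Gart (dsDNA in knockdown cells, -0.01), dnk (dsDNA in knockdown cells, -0.04), Ts (interaction, -0.002). Quantile normalization turned the sign of dnk (dsDNA in knockdown cells, -0.03), Ts (interaction, -0.002). Leaving out the 2 arrays that stood apart turned the sign of Gart (knockdown in mock-treated cells, -0.01), RnrL (knockdown in mock-treated cells, -0.06), RnrL (dsDNA in control cells, -0.05), dnk (knockdown in mock-treated cells, -0.02), dnk (interaction, 0.01), r (knockdown in mock-treated cells, -0.08), r (interaction, 0.07). The causes were not tested. The numbers of the arrays were not shown to pair samples: the correlations of number 1 minus number 2 between groups ran from -0.74 to 0.38 over 4189 brighter probe sets. With the replicate number as a block the estimates were unchanged, no gene was called, and r had 0.12 (SE 0.05; limma adjusted p 0.913) in the mean dsDNA effect and RnrL 0.05 (SE 0.04). Over all probe sets the count of calls was 3, all lower, with median centring in each of the single and mean knockdown comparisons, beside 0 without it; the filter at the median level gave 3, 3 and 4, the trended and robust eBayes 3 in the mean knockdown, and log2(intensity + 16) 1 there.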
